A study of Drosophila melanogaster with 6 samples.

Results

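Of the 17684 genes annotated on 2L, 2R, 3L, 3R, 4 and X, 32 genes of embryonic segmentation were examined for peaks of CAP-D3, a subunit of Condensin II. They were a named set of 3 maternal genes, 7 gap genes, 12 pair-rule genes and their relatives, 5 segment polarity genes and 5 genes of head and trunk identity, and their spans were searched for peaks whatever those peaks' scores. CAP-D3 peaks lay at 28 of the 32 genes, against 65.7% of other genes within their range of lengths. Spans of at most 4 kb, a limit chosen after the counts had been seen, occurred at 18 genes. Of these 18, 17 had a peak with its midpoint within the span, against 43.9% of other genes from 1425 bp, the shortest span of the set, to 4 kb. The share averaged 50.9% in genes of similar length on the same class of chromosome (X or the large autosomal arms). The few IgG midpoints in these short spans also exceeded those of similar genes, by a ratio no lower. Outside the spans CAP-D3 peaks were less dense than at other genes of the same length.

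Segmentation genes divide the Drosophila embryo into repeated units along the anterior/posterior axis. Maternal products set up gradients, gap genes read these gradients in broad domains, pair-rule genes turn the domains into stripes, and segment polarity genes maintain the border within each segment through signaling. Nearly all of the gap and pair-rule genes encode transcription factors, and their stripes depend on enhancers that lie outside or beside the transcribed unit. Condensin II is a ring-shaped protein complex that organizes chromosomes in mitosis and in interphase, and CAP-D3 is one of its HEAT-repeat subunits.

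ChIP-seq recovers DNA bound by a protein with an antibody, sequences it and calls regions with more fragments than control chromatin as peaks. The 6 samples were 2 CAP-D3 ChIPs with antibody YZ384 (spelled YZ834 in the series' design text), 2 ChIPs with normal rabbit IgG, an antibody that recognizes no particular chromatin protein, and 2 samples of input chromatin. All came from untreated cells of one embryonic Drosophila line, called S2R+ in the labels and S2 in the paper, with no allele or time course, and no expression was measured, so that the cell type could not be checked against markers. The deposited lists hold 22108 peaks for CAP-D3 and 3915 for IgG, both called with MACS against input, and neither separates the experiments. There were therefore no replicates to compare, the counts below carry no error between experiments, and no p-value is given. The score of a peak is −log10 of the MACS probability. Library depth is unknown, and a deeper library gives more and higher-scoring peaks, so that numbers and scores of peaks cannot be set against each other between the CAP-D3 and IgG lists as measures of binding.

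A peak was counted for a gene when it shared at least 1 bp with the annotated span extended by 1 kb on both sides. In these windows the 32 genes held 82 CAP-D3 peaks, each at 1 gene only, and a peak was present at 28 genes (87.5%). Among the 11077 other genes within the range of lengths of the set, 65.7% had a CAP-D3 peak in the same window, and over all other genes the share was 55.7%. The median was 2 peaks per segmentation gene and 1 per gene over all genes, which were shorter, with a median span of 1705 bp against 3434 bp. With a score of at least 10, there were 41 peaks at 23 of the 32 genes (71.9%), against 40.1% of genes in the same range of lengths.

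Since longer genes hold more peaks and X holds few, each gene was set beside all other genes with 0.8 to 1.2 times its length on the same class of chromosome, which is X for the 5 X-linked genes and 2L, 2R, 3L and 3R for the remaining 27. The means of these similar genes added up to 69.2 CAP-D3 peaks, where 82 were observed, and to 28.5 peaks with a score of at least 10, where 41 were observed. More peaks than the mean of similar genes were found at 20 of the 32 genes, a comparison in which 43.6% of the other genes in this range of lengths lay above their own mean. The ratios of observed peaks to summed means were 1.18 for all scores and 1.44 for scores of at least 10, and the share of the 82 peaks with the higher score did not differ from that of all CAP-D3 peaks beyond counting error. The IgG list had 10 peaks at 8 of the 32 genes (25%), against 17.1% of genes in the same range of lengths, and the means of similar genes added up to 10.6 IgG peaks, so that IgG peaks in the windows were not more numerous than at similar genes. An IgG score of 10 or more was found at 1 gene, hkb, against 3.95% of genes in the same range of lengths.

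**Figure D1:**
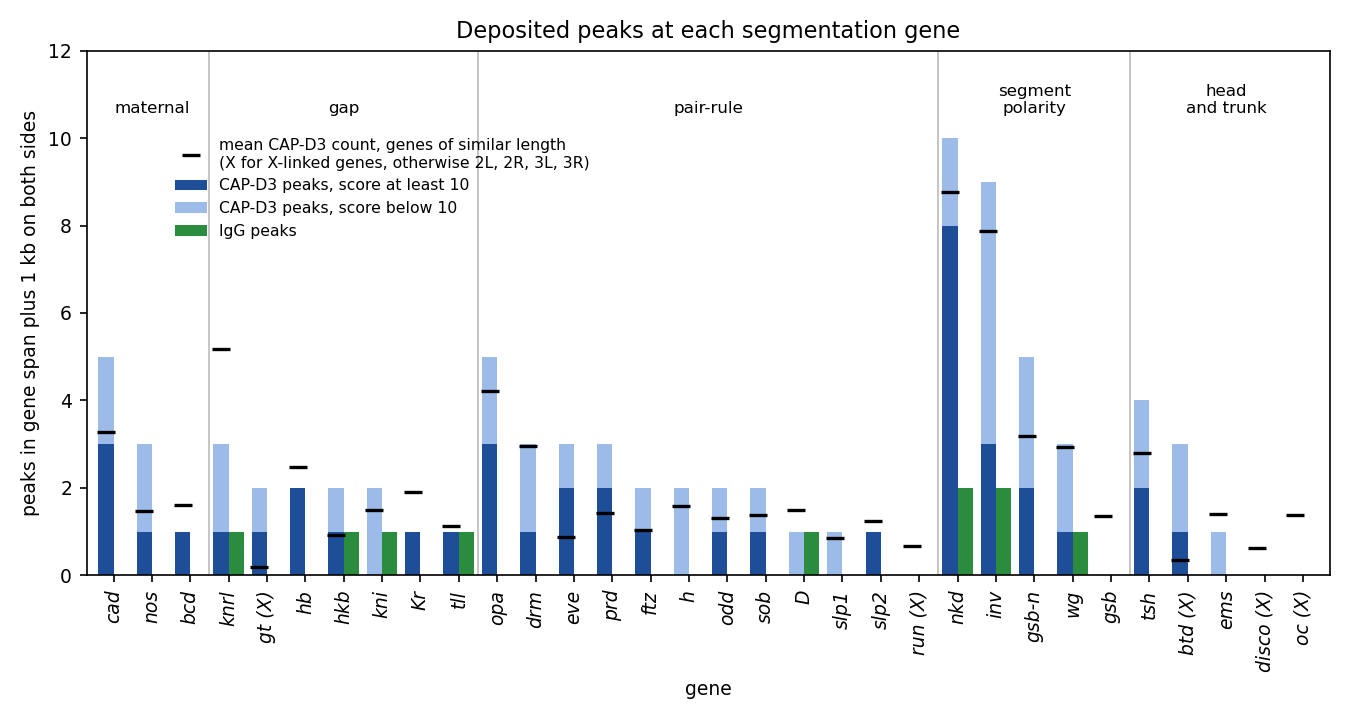
Number of deposited peaks in the span plus 1 kb on both sides of each of the 32 segmentation genes, grouped by class and ordered by count, with CAP-D3 peaks stacked by score (dark, at least 10, and light, below 10), IgG peaks beside them, and a black tick at the mean CAP-D3 count of genes of similar length on the same class of chromosome. The bars of nkd (10 peaks) and inv (9) are the highest, eve, prd, gt and btd stand far above their ticks, and gsb, run, oc and disco have no bar.

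Of the 82 peaks, 74 had their midpoint inside a span, where the means of similar genes added up to 56.4, a ratio of 1.31, and 6 midpoints lay 0 to 1 kb outside. The ratio differed between short and long genes. At the 18 genes with spans of at most 4 kb, the spans held 27 CAP-D3 midpoints in 45.8 kb, or 0.589 per kb, where the means of similar genes added up to 13.3, or 0.291 per kb. The ratio was 2.03. A midpoint lay within the span at 17 of these 18 genes, all except gsb. Of other genes from 1425 bp, the shortest span of the set, to 4 kb, 49.2% on the 4 large autosomal arms had one. On all chromosomes the share was 43.9%. For the similar genes of these 18 the share averaged 50.9%. The length limit of 4 kb was chosen after the counts had been seen. With 3000 bp as the limit, 12 of 13 genes had a midpoint in the span, with 18 midpoints against a sum of means of 8.81, and with 5000 bp the numbers were 18 of 19 genes and 28 midpoints against 14.8.

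At the 14 longer genes the same density was close to that of similar genes. Their spans held 47 midpoints, or 0.22 per kb, against 0.202 per kb, a ratio of 1.09. The short spans were also covered to a large extent. CAP-D3 peaks covered a median of 29.2% of the span of the 18 short genes. The mean coverage of their similar genes ranged from 2.31 to 13.9%, but a median and means are unlike measures. The coverage comes from the same peaks as the midpoints and is not a separate result. The 27 midpoints fell in the middle 25 to 75% of the short spans in 20 cases (74.1%), against 63.7% for the 4256 midpoints in other genes of this length. The annotation used here has no strand, so that positions are not given relative to the transcription start. Within 150 bp of either span end lay 2 of the 82 midpoints, at odd and prd.

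IgG midpoints in the short spans were few, 4 against a sum of means of 1.57, and they lay in kni, tll, hkb and D. A midpoint at 4 of 18 genes compares with 6.46% of other genes of this length on all chromosomes and 7.57% on the 4 large arms. The IgG ratio, 2.55, was thus in the same direction as that of CAP-D3 and no lower, although it rests on 4 peaks. The part of nonspecific recovery in the CAP-D3 density of the short spans was not tested. The other 14 short genes had no IgG midpoint in the span, and 13 of them had a CAP-D3 midpoint there. Most other genes of this length had no IgG midpoint either, so that this count does not measure the part of nonspecific recovery.

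**Figure D2:**
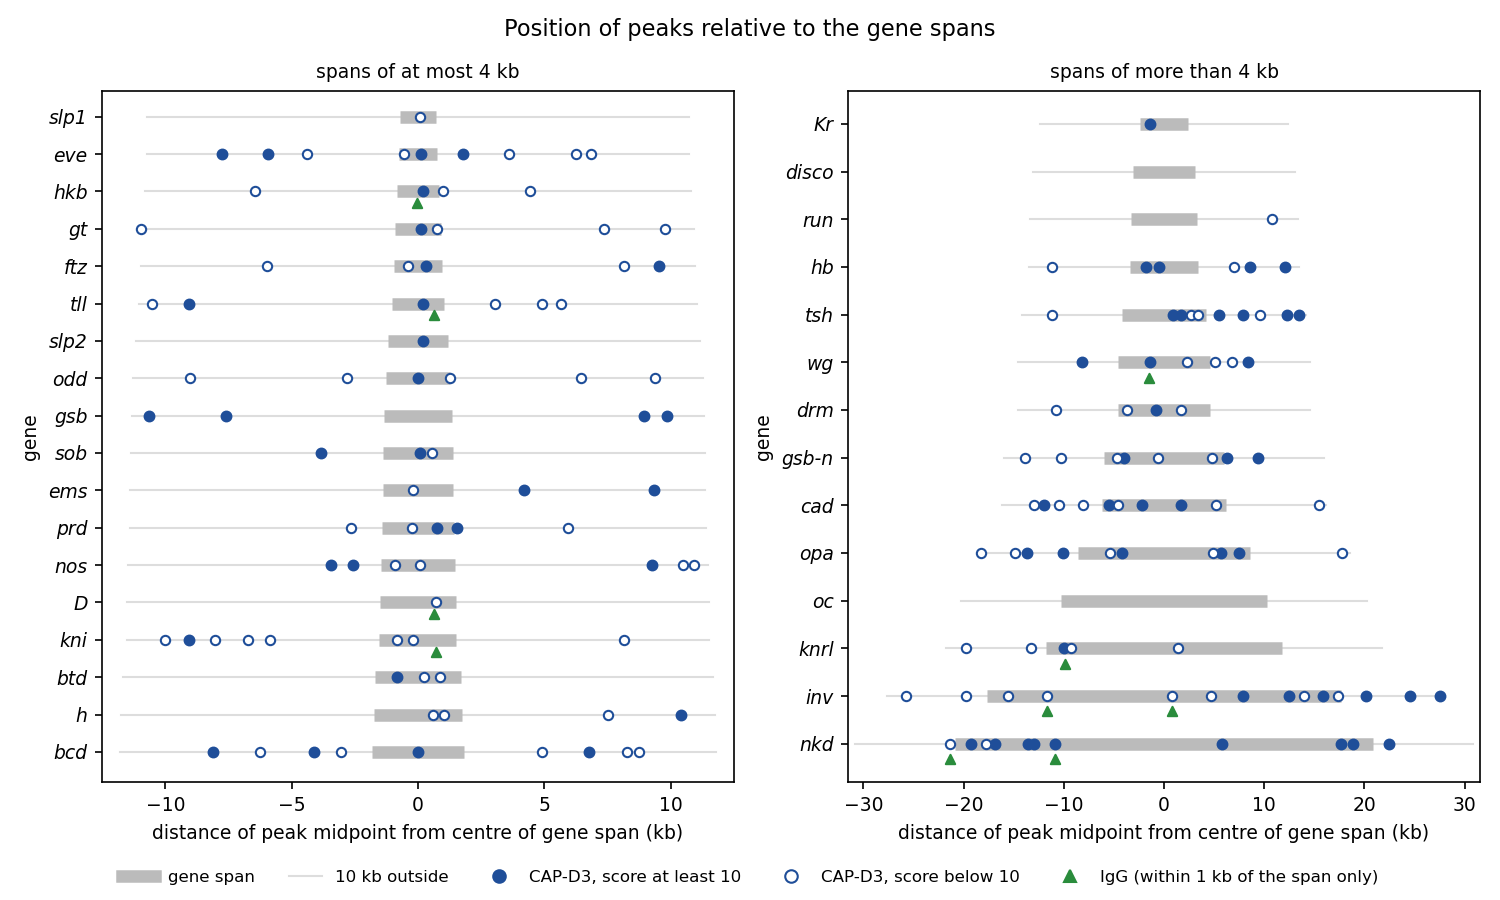
Midpoints of peaks around the 18 segmentation genes with spans of at most 4 kb (left) and the 14 with longer spans (right), as distance in kb from the center of the gene span. Gray bars are spans, thin lines reach 10 kb outside, filled circles are CAP-D3 peaks scored 10 or more, open circles those below 10, and triangles IgG peaks within 1 kb of the span; in the left panel every gene but gsb has a circle on its gray bar.

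Outside the spans the relation was the opposite. Within 10 kb outside the spans lay 92 CAP-D3 peaks, each counted once, and those within 1 kb of a span are also among the 82. They lay at 25 of the 32 genes (78.1%), whereas 87% of other genes in the same range of lengths had such a peak. Midpoints by distance were counted per gene, so that a peak near both gsb-n and gsb was counted for each. From 1 to 10 kb outside there were 89 midpoints against a sum of means of 129 for similar genes, a ratio of 0.689. From 0 to 1 kb outside the ratio was 0.603. IgG peaks lay within 10 kb outside 14 of the 32 genes, against 38.7% of genes in the same range of lengths, and their midpoints from 1 to 10 kb outside numbered 14 against 17.8. The surroundings of these genes differ from those of similar genes in one measured respect, namely that other annotated genes occupied a mean of 21.6% of the 10 kb flanks of the segmentation genes and 74.1% of the flanks of similar genes. On the 4 large autosomal arms CAP-D3 midpoints were denser in genes, at 0.224 per kb, than outside genes, at 0.128 per kb. The part of this difference in the lower flank density was not tested. For the 27 genes not on X the density from 1 to 10 kb outside was 0.177 per kb, and that of similar genes was 0.254 per kb.

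**Figure D3:**
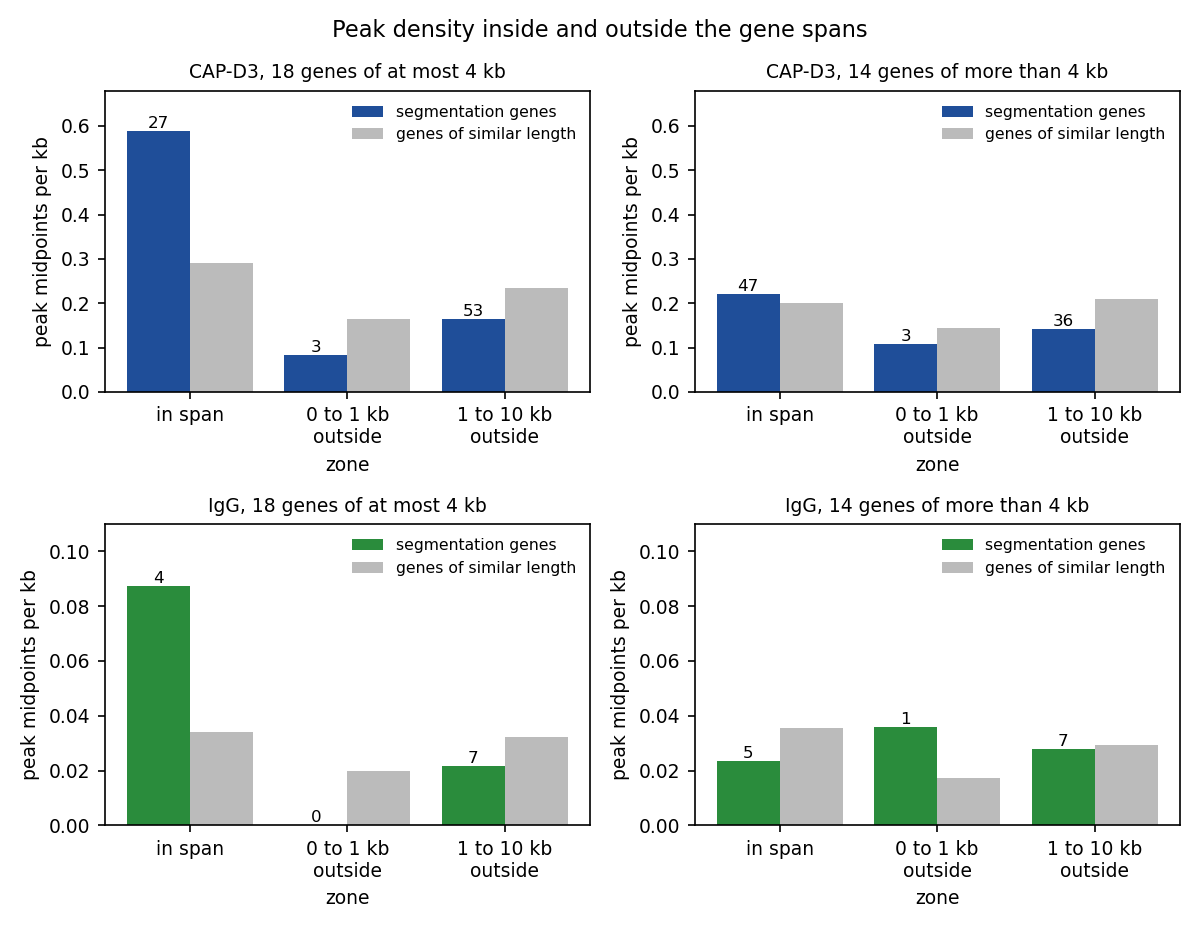
Peak midpoints per kb for CAP-D3 (top) and IgG (bottom) inside the span, 0 to 1 kb outside and 1 to 10 kb outside, for the 18 segmentation genes of at most 4 kb (left) and the 14 longer ones (right). Colored bars are the segmentation genes with the number of midpoints above each bar, and gray bars the summed means of genes of similar length on the same class of chromosome; CAP-D3 in the short spans reaches 0.589 per kb against 0.291.

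The 3 maternal genes held 9 CAP-D3 peaks and no IgG peak, where the means of similar genes added up to 6.35 and 0.953. At cad, a homeodomain gene whose protein forms a posterior gradient, 5 peaks lay within a span of 12.4 kb, and 3 of them had a score of at least 10. The strongest of these extended from 20778430 to 20778773 on 2L with a score of 16.53. Of 496 similar genes, 27.8% had at least 5 peaks, so that the number at cad was common. At nos, which encodes the translational repressor of the posterior pole, 3 peaks with scores of 12.33, 9.66 and 5.07 lay in the window, and all of them also lay over the annotated gene CG11779. At bcd, the homeodomain morphogen of the anterior pole, a single peak from 6757477 to 6757854 on 3R had a score of 13.57. Another 8 peaks lay within 10 kb outside bcd, where similar genes had a mean of 5.13. It was the largest number at any of the 32 genes, and some of the peaks were in its neighbors zen and Ama.

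All 7 gap genes had a CAP-D3 peak in the window, 13 in total, where the means of similar genes added up to 13.2, so that the class as a whole was at the level of its background. The 3 widest of the 82 peaks lay at gap genes. At tll, which encodes a nuclear receptor of both embryonic termini, 1 peak of 1125 bp from 30852978 to 30854102 on 3R covered 53.9% of the span and had a score of 16.04. At hkb, a zinc finger gene of the termini, a peak of 972 bp from 4345534 to 4346505 on 3R had a score of 11.7, and with a second peak of 3.43 it brought the covered share to 61.2%. At hb, a zinc finger gene expressed in the anterior of the embryo, 2 peaks with scores of 12.74 and 11.94 covered 25% of the span, and the first was 1106 bp wide. For comparison, similar genes were covered to 12.9, 11.5 and 12.8% on average for tll, hkb and hb, respectively.

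IgG peaks lay at 4 of the 7 gap genes, 1 at each, against a sum of means of 2.01 peaks. At tll, an IgG peak with a score of 6.51 shared 248 bp with the CAP-D3 peak. At hkb, the IgG peak began at the same base as the CAP-D3 peak, shared 488 bp with it and had a score of 16.23, the only IgG score of at least 10 in any of the 32 windows. The hkb signal was therefore also called with the control antibody. At kni and knrl, neighboring genes for related nuclear receptor-like proteins, the lists differed. The 2 CAP-D3 peaks of kni had scores of 9.68 and 5.54 and overlapped no IgG peak, although an IgG peak of 5.79 lay nearby in the same span. The long gene knrl (23.5 kb) held 3 CAP-D3 peaks, the strongest of which had a score of 13.68 and shared 278 bp with an IgG peak, and 73.7% of similar genes had at least as many.

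The remaining gap genes had no IgG peak. Kr, the zinc finger gene of the central domain, had 1 peak from 25227513 to 25227773 on 2R with a score of 16.93, which also lay over the annotated gene CG9380, and no other CAP-D3 peak within 10 kb outside its span. Only 3.89% of similar genes were without a peak in those flanks. The peak at Kr was, however, the last CAP-D3 peak on 2R, so that the flank beyond it lay in a terminal stretch without any. The X-linked gene gt encodes a bZIP repressor, and it had 2 peaks, with scores of 11.64 and 5.95, in a span of 1.85 kb. Of 381 genes of similar length on X, 2.62% had at least 2 peaks, since CAP-D3 peaks were rare on X.

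The 12 pair-rule genes and relatives held 25 CAP-D3 peaks against a sum of means of 19.0, and 1 IgG peak against 2.56. At eve, a homeodomain gene with the second shortest span of the set (1.48 kb), 3 peaks lay in the window. CAP-D3 peaks covered 73.1% of the span, the highest share of the 32 genes. The central peak of 817 bp from 9979781 to 9980597 on 2R had a score of 14.28, a peak outside the span from 9981688 to 9981987 had 14.89, and the third, over an annotated antisense RNA, had 4.59. Of 2239 similar genes, 6.03% had at least 3 peaks. Within 10 kb outside eve lay 7 peaks, including the one scored 14.89. It was the largest number after bcd, and similar genes had a mean of 4.92. None of the peaks in the eve window overlapped an IgG peak.

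At prd, which encodes a paired domain and a homeodomain, 3 peaks had scores of 9.7, 15.47 and 23.01. The last, from 12085832 to 12086081 on 2L, lay just outside one end of the span over an annotated antisense RNA and ranked 224 of the 22108 CAP-D3 peaks. At least 3 peaks were present at 19.4% of similar genes. ftz, another homeodomain gene, had 2 peaks with scores of 3.6 and 13.1, and h, which encodes a bHLH repressor, had 2 with scores of 4.65 and 7. Thus h was without a peak once a score of at least 10 was required. Among similar genes, 27.9% for ftz and 48.1% for h had at least 2 peaks. The zinc finger gene opa, a long gene of 17.2 kb, had 5 peaks, 3 of them with a score of at least 10, and 38.6% of similar genes had at least as many. run, which encodes the founding Runt domain protein, was the only member of the class without a peak; it is X-linked, and its nearest peak lay 7346 bp from the span with a score of 9.25.

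The related zinc finger genes odd, sob and drm on 2L held 2, 2 and 3 peaks, and their highest scores were 16.89, 10.86 and 11.15. Among their similar genes, 37.9, 40.8 and 53.0%, respectively, had at least as many peaks. The forkhead genes slp1 and slp2 had 1 peak each, with its midpoint near the middle of the span, with scores of 9.55 and 10.83, and no further CAP-D3 peak within 10 kb outside either span. Of similar genes, 4.37% for slp1 and 3.46% for slp2 had none in these flanks. The 2 genes lie less than 10 kb apart on 2L. The stretch between them therefore belongs to the flanks of both, and the shares are not separate results. D, a SOX gene of early segmentation, had a single peak with a score of 6.9, which shared 281 bp with an IgG peak of 8.11.

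The 5 segment polarity genes held 27 CAP-D3 peaks, the most of any class, but they include the longest genes, and the means of similar genes added up to 24.1. nkd, which encodes an intracellular antagonist of Wingless signaling, had 10 peaks in the window of a 41.7 kb span, and 42.5% of 233 similar genes had at least as many. With a score of at least 10, however, nkd kept 8 peaks, a number reached by 11.2% of similar genes. Their scores ran from 10.07 to 14.22, a range whose lower limit was set by the threshold, and the lowest score of all 10 was 6.95. IgG peaks overlapped 2 of the 10, with scores of 7.16 and 5.81.

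inv, the homeodomain paralog of engrailed, had 9 peaks in 35.2 kb, of which 3 reached a score of at least 10, a lower share than at nkd. At least 3 such peaks were present at 54.3% of genes similar to inv. The 3 were among the strongest of the set, with scores of 18.99, 18.92 and 17.72 at 11499765 to 11500219, 11504317 to 11504703 and 11507770 to 11508019 on 2R, all in the same end of the gene. The 2 IgG peaks of inv overlapped 2 other CAP-D3 peaks, with scores of 6.63 and 9.62. At least 9 peaks were present at 39.2% of similar genes. wg, the Wnt ligand of the segment border, had 3 peaks, and the strongest, with a score of 14.65 and the only one of at least 10, a number reached by 60.4% of similar genes, contained all 266 bp of an IgG peak with a score of 9.86. The paired-box neighbors gsb-n and gsb differed in length, with spans of 11.9 and 2.68 kb, and in peaks. gsb-n had 5 peaks with scores from 2.44 to 11.85, and 26.4% of similar genes had at least as many. In contrast, gsb, the only short gene without a CAP-D3 midpoint in its span, had none in the window. Its nearest peak lay at 6117 bp, and 4 peaks, all with a score of at least 10, lay within 10 kb outside. At least 1 peak was present at 72.2% of genes similar to gsb.

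The 5 genes of head and trunk identity held 8 CAP-D3 peaks and no IgG peak, where the means of similar genes added up to 6.51 and 0.731. tsh, a zinc finger gene of trunk identity, had 4 peaks in a span of 8.42 kb, among them the strongest of all 82, from 21833487 to 21833853 on 2L with a score of 25.29 and rank 122 in the list. The other scores at tsh were 10.25, 8.06 and 8.87, and all 4 lay toward the same end of the span. Of genes similar to tsh, 34.4% had at least 4 peaks. ems, a homeodomain gene of the head, had 1 peak with a score of 5.87. btd, an X-linked zinc finger gene of the head, had 3 peaks with scores of 11.77, 5.19 and 6.18, and 2.51% of 279 similar genes on X had at least 3. The X-linked genes oc, a homeodomain gene of the head, and disco, a zinc finger gene, had no CAP-D3 peak in the window or within 10 kb outside, and their nearest peaks lay 26686 and 88968 bp away.

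Of the 4 genes without a peak, 3 (run, oc and disco) were on X and 1 (gsb) on 2R. Of the 27 genes not on X, 26 had a CAP-D3 peak (96.3%), against 74% of other genes in this range of lengths on 2L, 2R, 3L and 3R. With a score of at least 10, the counts were 21 of 27, against 46.8%. An IgG peak was present at 8 of the 27, against 20.3%, and a CAP-D3 peak within 10 kb outside at 23 of the 27, against 95.9%. Of the 5 X-linked genes, 2 had a CAP-D3 peak, both with a score of at least 10, against 26.4% and 7.71% of other genes in this range of lengths on X. No IgG peak lay in their windows, where 1.77% of such genes on X had one, and 2 of the 5 had a CAP-D3 peak within 10 kb outside, against 45.1%. The 5 peaks at gt and btd compare with a sum of means of 3.18 for the 5 X-linked genes.

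The scores of the 82 peaks were close to those of the list. Their median was 9.97, and the median of all CAP-D3 peaks was 9.16. A score of at least 10 was reached by 50% (95% Wilson interval 39.4 to 60.6%), against 41.9% of all CAP-D3 peaks, a value within the interval. A score of at least 20 was reached by 2 peaks, those of tsh and prd (2.44%, 0.671 to 8.46%), against 2.33%. The median width was 365 bp against 324 bp, and 5 peaks, at hb, tll, hkb, eve and prd, were at least 800 bp wide (6.1%, 2.63 to 13.5%), against 3.45% of the list, also within the interval. Overlap with an IgG peak was found for 9 of the 82 (11%, 5.88 to 19.6%), against 13.9% of the list. These intervals take single peaks to be independent, and counting error is all that they cover.

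**Figure D4:**
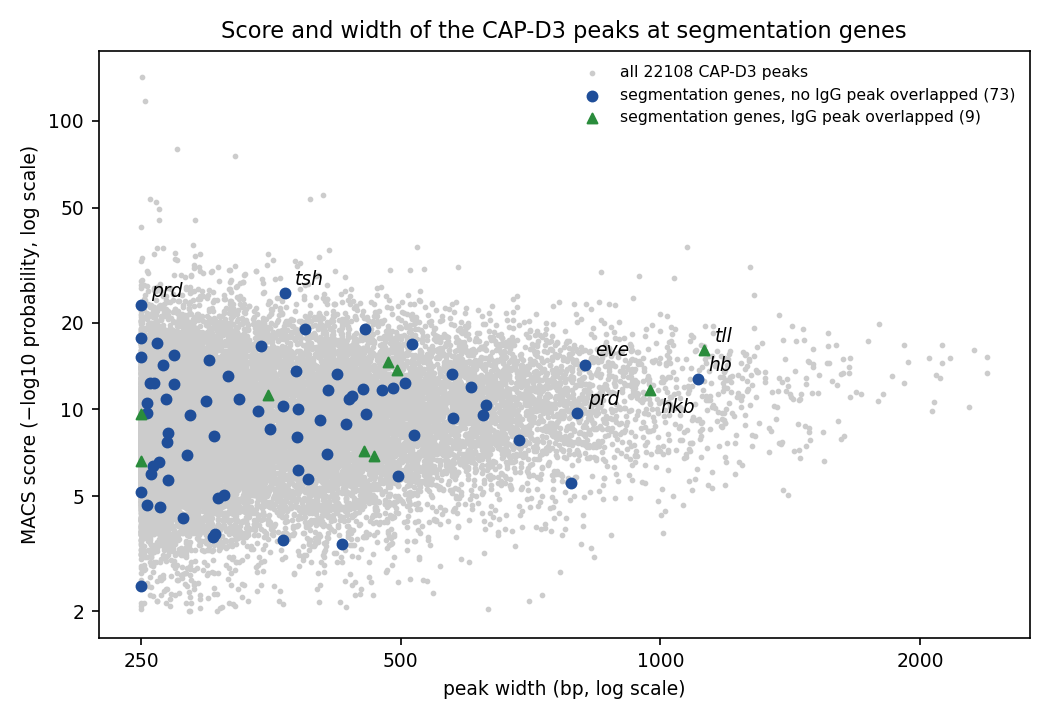
Score (−log10 of the MACS probability) against width in bp, both on log scales, for all 22108 CAP-D3 peaks (gray) and the 82 peaks at segmentation genes, as circles where no IgG peak was overlapped (73) and triangles where one was (9). The colored points lie within the dense part of the gray cloud, which reaches higher scores and greater widths, with tsh (25.29) and prd (23.01) highest and tll, hb and hkb widest.

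Another 29 genes of the same developmental pathways, among them maternal regulators and components of Hedgehog and Wingless signaling, were counted in the same way. A CAP-D3 peak was present at 20 of the 29, an IgG peak at 6, and CAP-D3 peaks that reached a score of 10 at 11, with a median of 1 peak per gene. These counts were near the shares of 65.7, 17.1 and 40.1% among genes within the range of lengths of the 32. Some of the 29 lie outside that range. Their CAP-D3 peaks numbered 66, fewer than the 95.9 to which the means of similar genes added up. In that sum ci and pan, on 4, were set beside genes on 2L, 2R, 3L and 3R. The genes with the most peaks were pum, a maternal translational repressor with 8 peaks in a span of 171340 bp (mean of similar genes 21.1), cnc, a bZIP gene of the head with 7 (8.62), and hh, the Hedgehog ligand, with 7 (3.49). The engrailed gene itself, the neighbor of inv, had 2 peaks, neither with a score of at least 10.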

How the data were processed

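Per the labels, chromatin was digested with micrococcal nuclease. The submitters' processing notes name CASAVA 1.4, Trim Galore 0.3.7, cutadapt 1.8, FastQC 0.11.3, Bowtie 1.0.0 and MACS2 2.0.9. The authors called peaks against input and deposited a score per peak, −log10 of a p-value or q-value; which of these, the genome build and how the experiments (2 per antibody in the labels, 3 in the paper's methods) were combined are not given in the sources used here. The lowest score in both lists was 2, a probability of 0.01. A score of at least 10 was a second threshold; it equals the p-value limit that the paper's text gives for CAP-D3 sites if the score is a p-value, and it depends on depth, which is unknown.

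Gene spans came from the RefSeq annotation of Release 6 plus ISO1 MT, which has no strand. Sequence names and extents of the peaks fitted it, but no source names the build, so gene coordinates are not printed. Of the 32 genes, 30 matched by symbol and 2 (h, nos) by synonym. Starts were converted to count from 1. Counts used Python 3.11.15, numpy 2.4.6, pandas 2.3.3 and scipy 1.17.1, and were tested on simulated data. The planned promoter sequences were not used here. All 32 genes are accounted for, in full the 12 with the most CAP-D3 peaks, those with an IgG peak and those with none; of 29 further genes the 3 with the most peaks are named. The 5 classes are a grouping made here. The 4 kb limit, the middle of the span and the 800 bp width were chosen after values were seen. Genes and lists were chosen with earlier results of these data known.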

Additional observations from a re-analysis of the deposited data

How the results depend on the processing

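No paired analysis was possible because the deposited peaks carry no values per experiment, and for the same reason no replicate could be left out. Counts followed the threshold. At a score of at least 10 there were 41 CAP-D3 peaks, 1 IgG peak and 1 gene with an IgG peak, and at 20 there were 2 CAP-D3 peaks at 2 genes, of which 0% overlapped an IgG peak, and 0 IgG peaks at 0 genes, against 82, 28, 10 and 8 with every deposited peak. With 10 kb added on both sides, 168 CAP-D3 peaks and 24 IgG peaks at 19 genes were counted. The share of genes of similar length with a CAP-D3 peak, averaged over the 32 genes, was 69.5%, 70.7% on the same class of chromosome and 44.2% at a score of at least 10. Counts over the set moved by less than 1.5 times with the span alone, with midpoints, with at least 50% of the peak in the window, or without peaks that overlap IgG (73 peaks at 26 genes). Single-gene counts moved by more than 1.5 times, or to or from 0, at 20 of the 32 genes with a score of at least 10. The same held at 22 genes with 10 kb, and at 3 without peaks that overlap IgG. Smaller changes, such as from 3 peaks to 2, occurred at further genes and are not in these numbers. Unknown depth limits every comparison between the lists.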
